A study of Mus musculus with 2 samples.

Results

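Collagens are the main structural proteins of the extracellular matrix, and each is assembled from 3 chains that are encoded by 1 or more genes. The collagen chain genes were taken as every gene whose symbol is Col, a number, the letter a and a number, which gave 44 of the 56980 genes counted. They were examined in dissociated cells of the mouse small intestine, profiled by droplet-based 10x Genomics single-cell RNA sequencing in 1 library named control and 1 library named model. The study's title ties it to compounds called CB001 and to simulated microgravity and radiation. What was done to the model animal is not stated in the labels used here, and neither are the strain, age or number of animals or the stretch of gut. Both groups share the same preparation, in which the gut was freed of mesentery and Peyer's patches and EDTA treatment came before an enzyme digestion by collagenase and DNase. With 1 library per group no difference has a replicate check, and library and group cannot be told apart.

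A collagen molecule is a triple helix of chains that is folded in the endoplasmic reticulum, secreted and, for the fibril-forming types, trimmed and crosslinked outside the cell. Types I, III and V build the fibrils of the lamina propria and submucosa, where fibroblasts are their main source. Type IV forms the sheet-like network of basement membranes under epithelium and around vessels, muscle and nerve. Type VI forms beaded filaments near cell surfaces, and further types decorate fibrils (XII, XIV, XVI), link basement membranes to the matrix (VII, XV, XVIII) or remain anchored in the cell membrane (XIII, XVII, XXIII, XXV).

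The control library held 10259 barcodes and 61370270 unique molecular identifiers (UMIs, each the mark of 1 captured RNA molecule), and the model library 11468 barcodes and 76701215 UMIs. After filtering, 7329 control and 7913 model cells remained, with median mitochondrial shares of 10.8% and 5.38%. Of the barcodes, 28 occurred in both libraries, 12 of them among the kept cells. Cell types were named from marker genes, written with "-like", after clustering without the collagen genes, so that no cell type was defined by them. Fibroblast-like cells numbered 108 in the control library against 48 in the model library, smooth muscle or pericyte-like cells 49 and 64, endothelial-like cells 66 and 68, and epithelial cells 3403 and 3104. All 10 fibroblast markers, among them Dcn, Lum and Pdgfra, all 8 smooth muscle markers, all 10 endothelial markers and all 10 epithelial markers were detected in their own cell type in both libraries. The same lists gave the names, so detection is no separate check. All 10 epithelial markers were also detected in fibroblast-like cells. Of 8 pericyte markers, 8 and 6 were detected in smooth muscle or pericyte-like cells, Kcnj8 and Abcc9 being at 0 in the model library. Levels are given as CPM, a gene's UMIs per 1000000 UMIs of the cell type in that library, with exact 95% Poisson intervals. Ratios of model over control carry exact binomial 95% intervals, and all intervals cover counting error only, neither animals nor the choice of cells. UMIs count captured molecules, so levels of different genes were set side by side without a length correction.

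Collagen transcripts were concentrated in fibroblast-like cells. These were 1.47% of the control and 0.607% of the model cells, and they held 81.8% and 74.6% of all collagen UMIs. The summed level of the 44 genes in them was 33470.5 CPM (32998 to 33948) in the control library and 39037 CPM (38106 to 39986) in the model library, a median of 3.13% and 2.85% of the UMIs of a cell. Mesothelial-like cells, the lining of the outer gut surface, followed at 7077 and 7368 CPM in only 6 and 5 cells. Enteric glia-like cells held 6153 and 5348 CPM in 20 and 6 cells. Smooth muscle or pericyte-like cells held 3445 and 1802 CPM, and endothelial-like cells 2222 and 1796 CPM. Epithelial cells lay far lower, at 22.4 CPM (20.9 to 23.9) in the control and 10.3 CPM (9.45 to 11.3) in the model library. T cell-like cells, which should lack collagens, held 29.5 CPM (24.7 to 34.9) and 11.9 CPM (9.57 to 14.7), and plasma cell-like cells 9.54 and 6.17 CPM. The summed epithelial level therefore did not exceed that of T cell-like cells in either library. Over all kept cells the summed level was 442 CPM in the control and 135 CPM in the model library, a ratio of 0.306 (0.298 to 0.313), while the number of fibroblast-like cells was also lower in the model library.

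**Figure D1:**
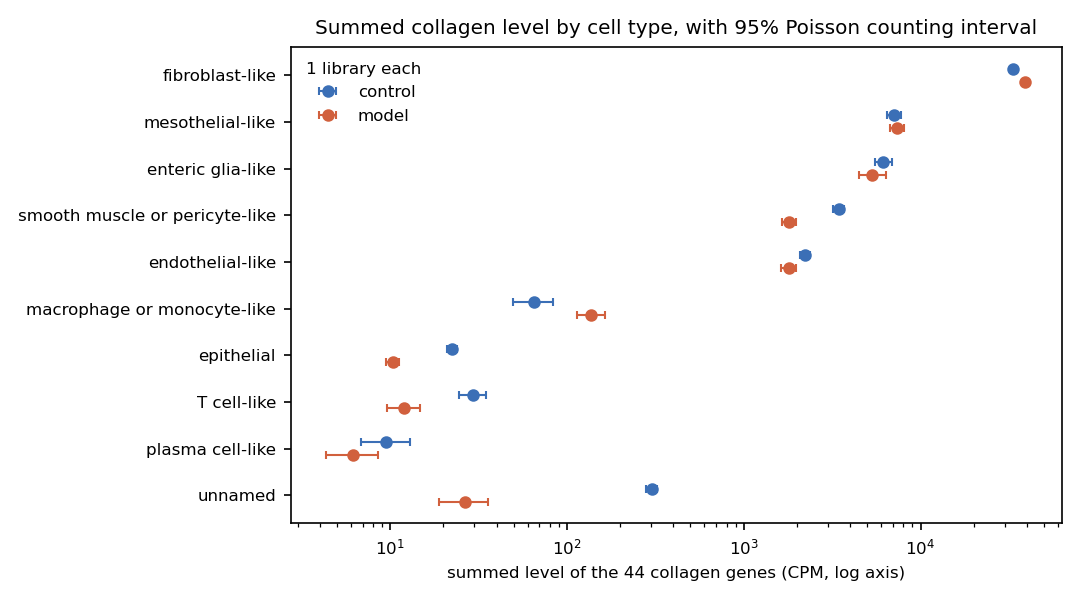
Summed level of the 44 collagen genes in CPM (log axis) in each cell type, with the control library in blue and the model library in orange and bars for the 95% Poisson counting interval. Fibroblast-like cells lie at 33470.5 and 39037 CPM, and epithelial cells lie at or below the T cell-like cells.

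All 44 genes had at least 1 UMI somewhere among the kept cells. Of these, 27 reached 20 UMIs over both libraries in at least 1 of fibroblast-like, smooth muscle or pericyte-like, endothelial-like and epithelial cells, and 22 reached 50. Among those 27, 15 were at their highest level of the 4 cell types in fibroblast-like cells in both libraries. Col4a5, a basement membrane chain, was highest in smooth muscle or pericyte-like cells, Col13a1 and Col23a1, both membrane-anchored, in endothelial-like cells, and Col25a1, also membrane-anchored, in epithelial cells, in both libraries each. For Col4a1, Col4a2, Col7a1, Col11a2, Col17a1, Col18a1, Col20a1 and Col27a1 the highest cell type was not the same in the 2 libraries. A single UMI gives a higher level in the smaller stromal types than in epithelial cells. Ranks of genes with few UMIs in those types therefore depend on type size, among them Col25a1, with 10 and 19 UMIs in epithelial cells. The remaining 17 genes stayed under 20 UMIs in each of the 4. They were Col2a1, Col11a1, Col24a1, Col4a3, Col4a4, Col4a6, Col6a4, Col6a6, Col9a1, Col9a2, Col9a3, Col19a1, Col22a1, Col8a2, Col10a1, Col26a1 and Col28a1. Over all kept cells their totals ran from 1 and 1 UMIs for Col22a1 to 28 and 24 for Col4a4, so their levels in the 4 cell types were at the limit of the depth. Several are known from cartilage, such as Col2a1, Col9a1 and Col10a1. A few of them had their UMIs in few cells of 1 type. Col6a4, an alternative type VI chain, had 10 of 13 control and 7 of 10 model UMIs in fibroblast-like cells. Col4a6 had 5 of 11 and 9 of 12 in smooth muscle or pericyte-like cells, and Col4a4 11 of 28 and 8 of 24 in the 6 and 5 mesothelial-like cells.

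**Figure D2:**
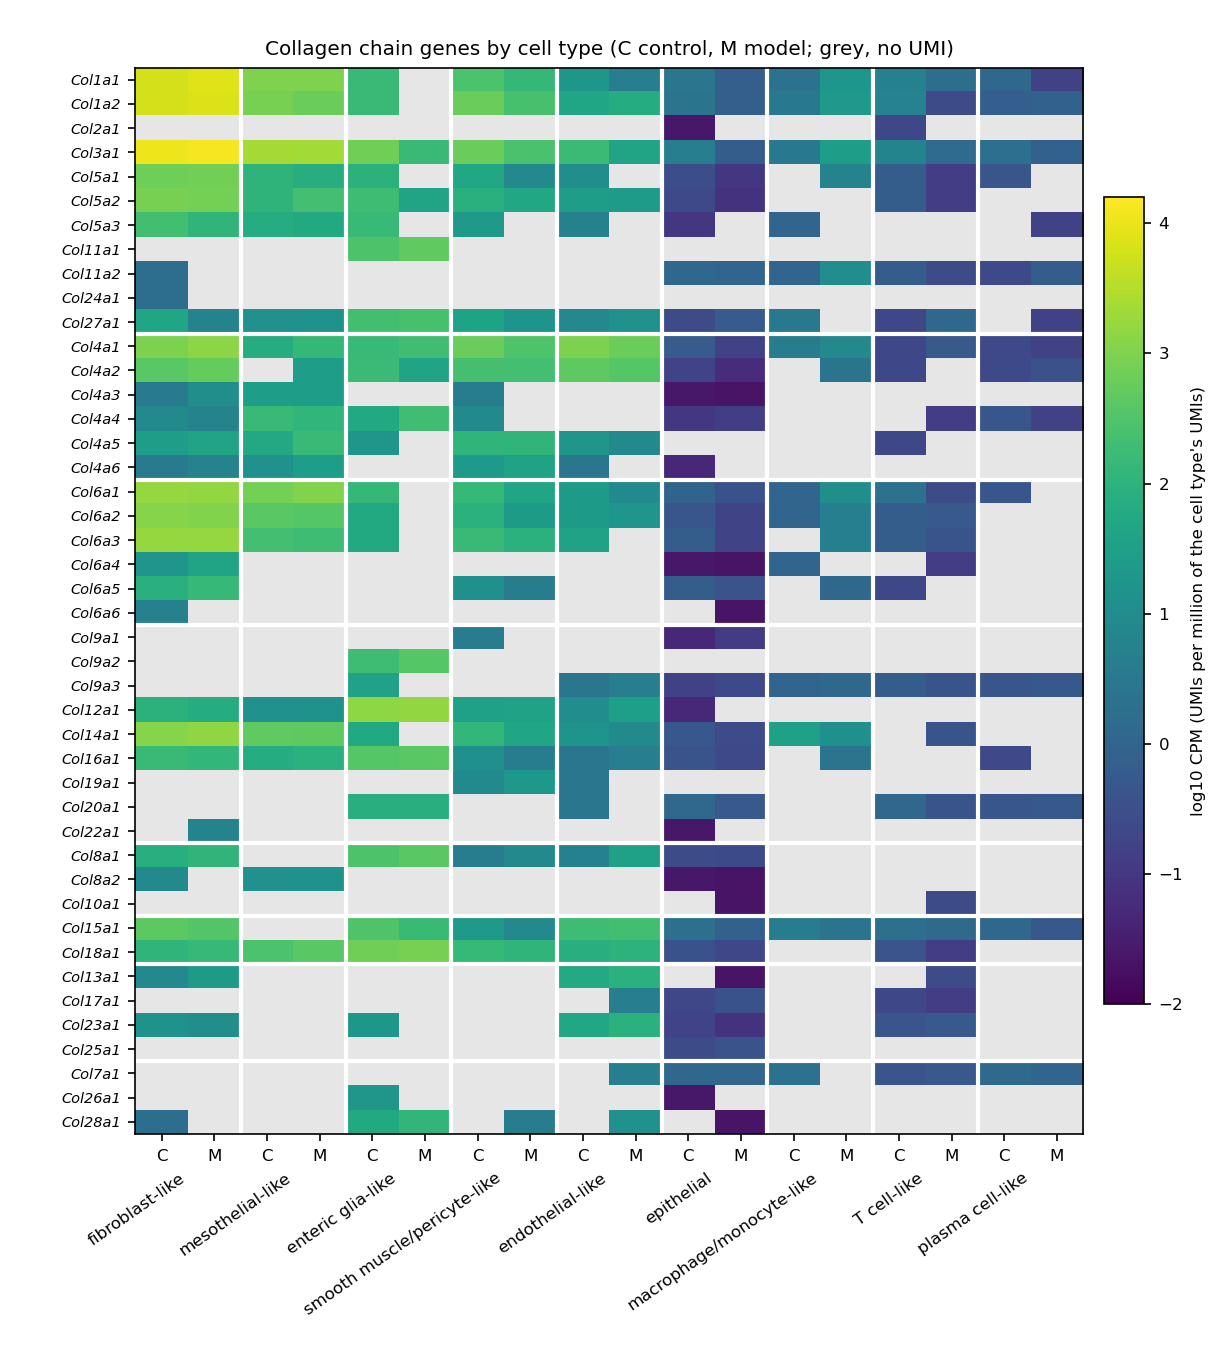
Level of each collagen gene (rows, ordered by family with white lines between families) in 9 cell types of the control (C) and model (M) library, as log10 CPM by colour, grey where no UMI was found. The brightest fields are Col1a1, Col1a2 and Col3a1 in fibroblast-like cells, and 1 UMI gives a lower value in the large epithelial class than in the small stromal ones.

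The fibril-forming chains led in fibroblast-like cells, with 75.7% and 77.6% of the collagen UMIs in the control and model library. Col3a1 (ENSMUSG00000026043), the only chain of type III collagen, had 6173 and 2218 UMIs, a level of 10782 CPM (10515 to 11055) in the control and 12977 CPM (12443 to 13529) in the model library. Col1a1 (ENSMUSG00000001506), the chain present in 2 copies in type I collagen, had 3715 and 1387 UMIs, and Col1a2 (ENSMUSG00000029661), its partner chain, 3583 and 1284. The control levels of Col1a1 and Col1a2 were 6489 and 6258 CPM and the model levels 8115 and 7513 CPM. Each of the 3 chains was seen in nearly every fibroblast-like cell, Col1a1 in 107 of 108 control and 46 of 48 model cells. In T cell-like cells Col1a1 was seen in 13 of 1336 and 12 of 2481. The median depths were 4989 and 3419 UMIs per fibroblast-like cell and 3079.5 and 2711 per T cell-like cell. Among UMIs of these 3 genes, Col1a1, Col1a2 and Col3a1 took 27.6%, 26.6% and 45.8% in the control library and 28.4%, 26.3% and 45.4% in the model library. The proportions of the major fibril chains thus differed by less than 1 percentage point between the libraries.

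The start regions of genes whose transcripts were detected together are shown for the 2 leading fibril genes that had an entry and for the paired type IV genes. The windows run from 250 bases before to 50 bases after the annotated start, 5′ to 3′ on the gene's strand, and come from RefSeq on GRCm38.p6, which is not the GRCm39 build of the counts. Capitals mark 3 motifs, each searched on both strands. The GC box is spelled GGGCGG in full. The second motif, named for its letters, is the CCAAT box. The TATA box was searched as TATAAA. Matches did not overlap in these 4 windows. Entries were found for 35 of the 44 genes. Col1a1, Col2a1, Col5a2, Col4a3, Col9a3, Col12a1, Col14a1, Col22a1 and Col26a1 had none.
Col1a2, chr6:4505368-4505667, plus strand: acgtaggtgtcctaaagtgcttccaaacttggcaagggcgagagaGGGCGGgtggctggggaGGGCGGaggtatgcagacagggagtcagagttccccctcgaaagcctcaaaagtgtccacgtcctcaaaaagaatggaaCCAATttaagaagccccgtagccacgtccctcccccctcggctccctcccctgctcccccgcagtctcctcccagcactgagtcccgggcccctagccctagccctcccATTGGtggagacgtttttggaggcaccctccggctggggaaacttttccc
Col3a1, chr1:45311288-45311587, plus strand: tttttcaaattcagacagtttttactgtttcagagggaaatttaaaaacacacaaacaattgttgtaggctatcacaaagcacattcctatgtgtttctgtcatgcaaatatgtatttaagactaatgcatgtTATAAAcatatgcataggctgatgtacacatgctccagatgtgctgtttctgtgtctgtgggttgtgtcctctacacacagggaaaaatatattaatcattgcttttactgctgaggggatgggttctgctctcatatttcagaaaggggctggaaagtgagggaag
Col4a1, chr8:11312777-11313076, minus strand: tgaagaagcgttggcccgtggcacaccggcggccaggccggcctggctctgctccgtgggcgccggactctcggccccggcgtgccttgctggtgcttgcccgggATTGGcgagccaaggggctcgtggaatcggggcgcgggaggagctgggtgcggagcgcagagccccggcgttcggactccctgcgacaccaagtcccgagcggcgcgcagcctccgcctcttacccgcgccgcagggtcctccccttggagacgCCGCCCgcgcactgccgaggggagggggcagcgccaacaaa
Col4a2, chr8:11312555-11312854, plus strand: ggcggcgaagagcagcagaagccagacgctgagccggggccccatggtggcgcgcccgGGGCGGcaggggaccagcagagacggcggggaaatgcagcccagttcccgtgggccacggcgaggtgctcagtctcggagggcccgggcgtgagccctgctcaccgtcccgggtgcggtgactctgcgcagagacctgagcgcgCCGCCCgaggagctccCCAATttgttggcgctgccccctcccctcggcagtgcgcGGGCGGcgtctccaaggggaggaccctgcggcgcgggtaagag
The start regions of the 2 fibril genes differ in composition. That of Col1a2 was 61% G or C with 2 GC boxes and 2 CCAAT boxes, and that of Col3a1 was 37.7% G or C with 1 TATA box and neither of the other motifs. The median over all windows was 52.7%. Col4a1 and Col4a2 lie head to head on opposite strands, and their windows, at 74% and 73.7% G or C, share 78 bases. Of the 32851 windows in the table, 35.7% held a GC box, 37.4% a CCAAT box and 13.6% a TATA box. Of the 38 windows of collagen genes, 23, 13 and 5 did. A match describes the letters only.

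The minor fibril chains were an order lower. Col5a1 and Col5a2, chains of type V collagen, which is known to start and limit fibril growth, had 396 and 130 UMIs and 498 and 136 UMIs in control and model fibroblast-like cells. Their levels were 692 and 761 CPM and 869.9 and 796 CPM. Col5a3, the third type V chain, had 119 and 20 UMIs, a level of 208 CPM (172 to 249) in the control and 117 CPM (71.5 to 181) in the model library. Col27a1, a fibril-forming chain known from cartilage, had 26 and 1 UMIs, spread over 21 control cells and 1 model cell. These 2 genes were the ones that lay lower in the model library by the rule used for all genes.

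Type VI collagen was the next most abundant group in fibroblast-like cells, with 13.8% and 11.5% of the collagen UMIs. Its 3 classical chains were present at like levels. Col6a3 had 975 and 291 UMIs (1703 and 1703 CPM), Col6a1 942 and 269 (1645 and 1574 CPM) and Col6a2 663 and 177 (1158 and 1036 CPM). Col6a1 and Col6a2, which are neighbours in the genome, were both seen in 98 of 108 control and 37 of 48 model cells. Col6a5, an alternative chain, had 50 and 24 UMIs, 49 and 24 of them in a single cluster of fibroblast-like cells marked by Sfrp1 and Adamdec1.

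Fibroblast-like cells also carried the type IV network chains. Col4a1 (ENSMUSG00000031502) had 545 and 221 UMIs, 952 and 1293 CPM, and Col4a2 (ENSMUSG00000031503), which joins it in the commonest type IV molecule, 241 and 94 UMIs, 421 and 550.0 CPM. The UMI ratio of Col4a1 to Col4a2 was 2.26 for control cells and 2.35 for model cells, against 2.10 and 1.79 in endothelial-like cells. Reads of neighbouring genes on opposite strands are kept apart only where counting uses strand, which is not given in the sources used here. Among the fibril-associated chains Col14a1, known from the surface of type I fibrils, led with 663 and 258 UMIs, 1158 and 1509.5 CPM, followed by Col16a1 with 91 and 22 and Col12a1 with 54 and 12 UMIs. Of the basement membrane proteoglycan collagens, Col15a1 had 255 and 59 and Col18a1, the source of the fragment endostatin, 66 and 24 UMIs. Col8a1, a short-chain network collagen, had 46 and 20 UMIs.

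**Figure D3:**
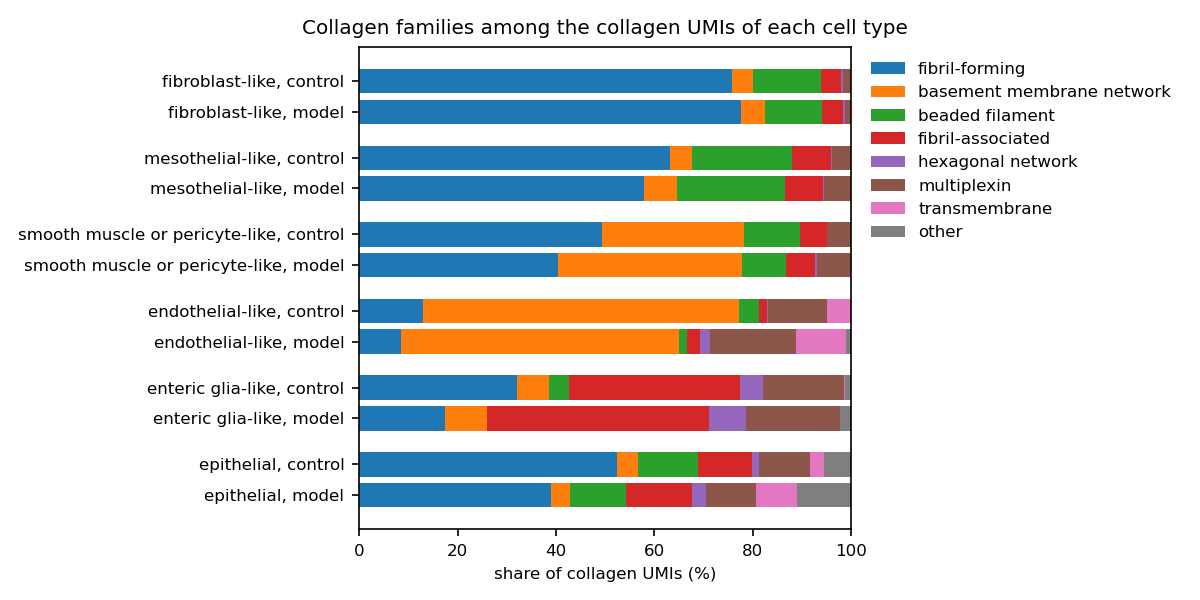
Share of the collagen UMIs of 6 cell types that came from each collagen family (stacked bars in percent), with a bar for each library. Fibril-forming chains take 75.7% and 77.6% in fibroblast-like cells, and the basement membrane network takes 64.3% and 56.5% in endothelial-like cells.

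Between the libraries, the collagen genes of fibroblast-like cells were close to level. Of the 20 genes with at least 20 UMIs, 0 were higher and 2 lower in the model library by at least 1.5-fold with an interval that excluded 1. Over all 5635 genes so measured in fibroblast-like cells, 3.5% were higher and 5.2% lower. The median log2 ratio was 0.20 for the collagen genes and -0.05 for all genes. The lower genes were Col5a3, at a ratio of 0.563 (0.332 to 0.909), and Col27a1, at 0.129 (0.00314 to 0.784), which rests on 26 and 1 UMIs. The abundant chains lay above 1 but inside the 1.5-fold, Col1a1 at 1.25 (1.17 to 1.33), Col1a2 at 1.20 (1.13 to 1.28), Col3a1 at 1.20 (1.15 to 1.26), Col4a1 at 1.36 (1.16 to 1.59) and Col14a1 at 1.30 (1.12 to 1.51). The type VI chains lay at or just below 1, Col6a1 at 0.957 (0.832 to 1.10), Col6a2 at 0.894 (0.753 to 1.06) and Col6a3 at 1.00 (0.874 to 1.14). The summed ratio was 1.17 (1.13 to 1.20), and its direction turned on how cells were weighted. The mean of per-cell levels gave a log2 ratio of -0.12 and cells thinned to 1000 UMIs -0.082, against 0.22 for the sums. The 3 model cells with the most collagen UMIs held 25.4% of the model total, against 7.45% for 3 cells in the control library. Without those 3 cells in each library the log2 ratio was 0.042, that of Col3a1 was -0.043, and 1 gene was higher and 3 were lower. Markers of other cell types in the fibroblast-like cells also differed between the libraries, those of goblet cells standing at 3006 CPM in the control (7 of 8 detected, Spdef at 0) and 398 CPM in the model library (likewise), and their part in the ratios was not tested.

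**Figure D4:**
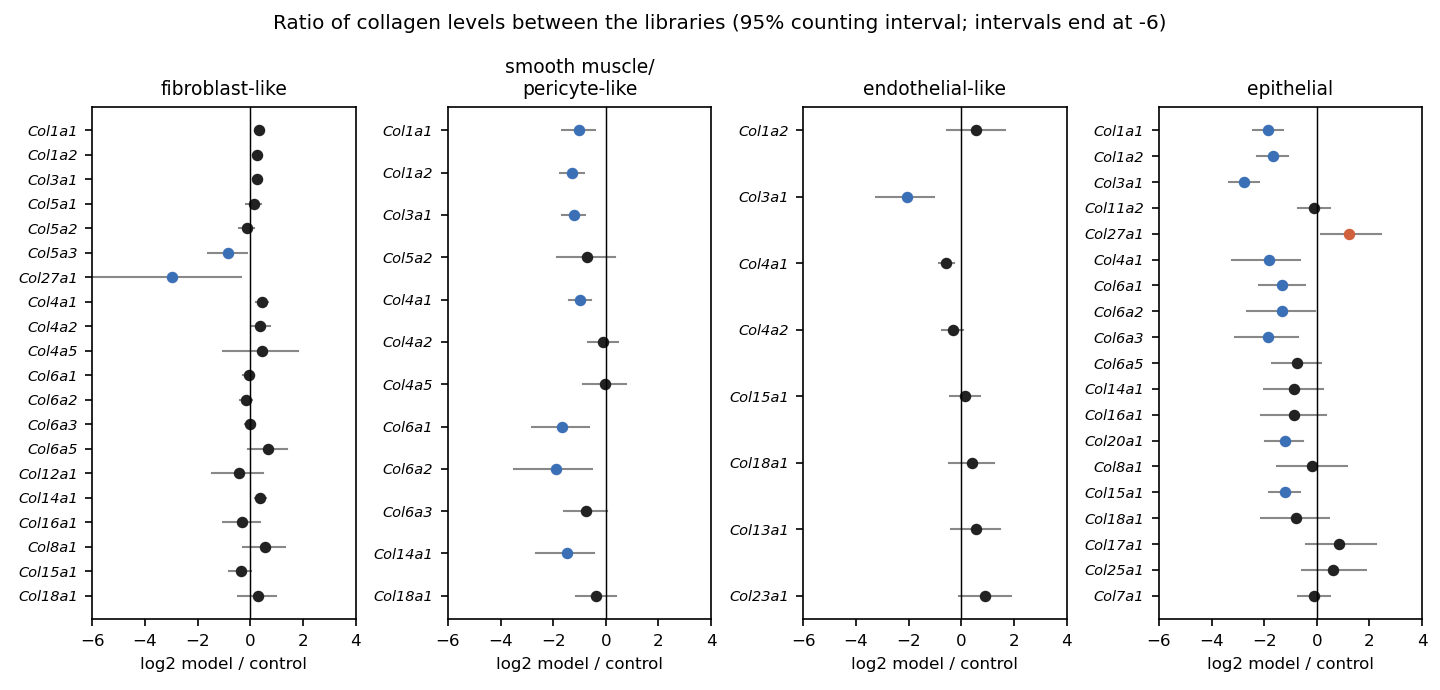
Log2 ratio of model over control for every collagen gene with at least 20 UMIs in the cell type, with the 95% counting interval; blue marks genes lower and orange genes higher in the model library by at least 1.5-fold with an interval that excludes 1. Of the smooth muscle or pericyte-like genes 7 of 12 are blue, and 2 of 20 in fibroblast-like cells.

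The fibroblast-like cells fell into 4 clusters that differed in collagen content. Cluster 105, led by Sfrp1 and Adamdec1 once collagen genes are set aside, held 59 control and 33 model cells at 36470.2 and 30474 CPM of summed collagen, a ratio of 0.836 (0.802 to 0.870). Cluster 108, led likewise by Grem1, an inhibitor of bone morphogenetic proteins, had the highest level, 56128 and 60992 CPM in 22 and 10 cells, a ratio of 1.09 (1.04 to 1.14). Cluster 110, led by Lpl and Inmt, held 19856 and 34362 CPM in 22 and 4 cells, a ratio of 1.73 (1.59 to 1.89). Cluster 111 held 5 control cells and 1 model cell at 9598 and 14082 CPM. In both libraries cluster 108 stood highest and cluster 111 lowest. The 4 model cells of cluster 110 included 1 cell with 6.31% collagen, while their median, 1.93% of the cell's UMIs, lay below the control median of 2.28%. In cluster 105 the medians were 3.16% and 2.58%, and in cluster 108 5.59% and 5.17%, with wide overlap of single cells in each. Within cluster 105, Col14a1 was higher in the model library, 193 and 114 UMIs at a ratio of 1.56 (1.23 to 1.98), and Col5a3 lower, 44 and 6 UMIs at 0.360 (0.125 to 0.848). Col14a1 was also unequal between clusters, at 2931 and 2429.7 CPM in cluster 108 against 732 and 1142 in cluster 105. Col8a1 showed the same pattern more sharply, with 31 and 15 of its 46 and 20 UMIs in cluster 108. Cluster 105 made up 54.6% of the control and 68.8% of the model fibroblast-like cells, and cluster 110 20.4% and 8.33%.

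**Figure D5:**
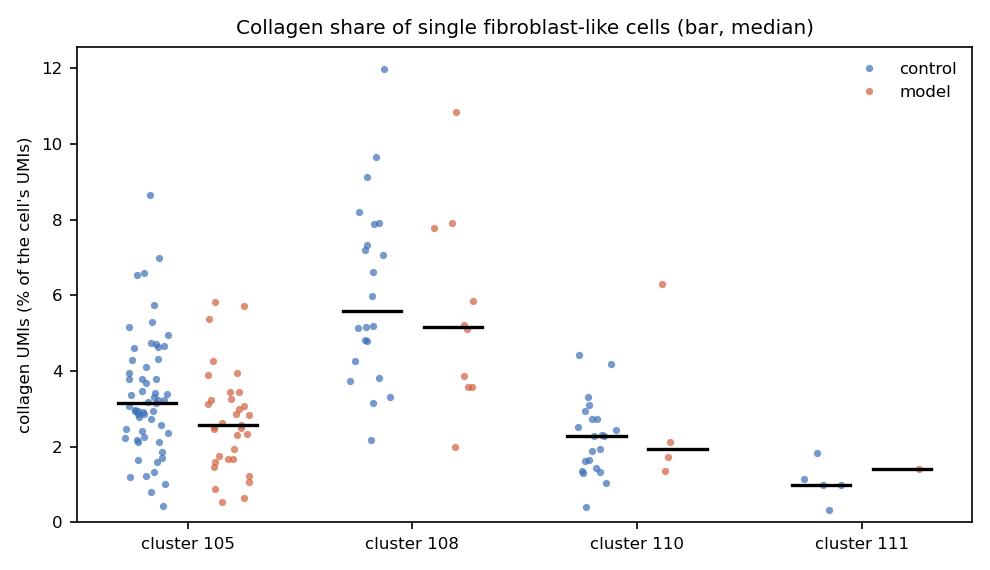
Collagen UMIs as a percent of each fibroblast-like cell's UMIs (points, 1 per cell) by cluster and library, with a bar at the median. Cells of cluster 108 lie highest, with medians of 5.59% and 5.17%, and the 2 libraries overlap in each of the clusters 105, 108 and 110.

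Smooth muscle or pericyte-like cells had a lower collagen content and a different mix of chains. Fibril-forming chains took 49.3% and 40.4% and the type IV network 28.9% and 37.4% of their collagen UMIs. Among Col1a1, Col1a2 and Col3a1 the shares were 18.1%, 40.7% and 41.3% in the control library, so that Col1a2 outnumbered Col1a1, 142 UMIs to 63, a ratio of 0.444 for Col1a1 over Col1a2, against 1.04 in fibroblast-like cells. The model library showed the same order, 62 to 33. Of the control cells, 21 of 49 had Col1a2 without Col1a1 and 2 had Col1a1 without Col1a2. Col4a5, a chain of the type IV form known from smooth muscle basement membranes, had 27 and 28 UMIs, 116 and 113 CPM, against 29.7 and 41.0 CPM in fibroblast-like cells. Its neighbour Col4a6 had 5 and 9 UMIs. Col18a1 had 34 and 28 UMIs and Col15a1 5 and 2, the reverse of the order in fibroblast-like cells.

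In the smooth muscle or pericyte-like class 0 of 12 collagen genes were higher and 7 lower in the model library, where 3.69% and 4.6% of all 4065 genes measured were higher and lower. The median log2 ratio was -1.01 for the collagen genes and -0.02 for all genes, and the summed ratio 0.523 (0.465 to 0.588). Col1a2 had 142 and 62 UMIs, a ratio of 0.411 (0.300 to 0.557). Col3a1 had 144 and 66 UMIs, a ratio of 0.431 (0.317 to 0.581), and Col1a1 63 and 33, 0.493 (0.313 to 0.763). The fibril chains were therefore lower in the model library by more than counting error, the error that 1 library per group allows to be measured. Col4a1 had 142 and 76 UMIs, a ratio of 0.504 (0.376 to 0.670), while its partner Col4a2 had 55 and 54, 0.924 (0.623 to 1.37), and Col4a5 0.976 (0.554 to 1.72). Col6a1, Col6a2 and Col14a1 lay at 0.314, 0.269 and 0.357 from 33 and 11, 21 and 6 and 29 and 11 UMIs. The type IV network as a group lay at 0.677 (0.552 to 0.830) and the fibril-forming group at 0.429 (0.357 to 0.513). The chains of the commonest type IV molecule were thus not in the same proportion, with 2.58 UMIs of Col4a1 per UMI of Col4a2 in the control (1.88 to 3.59) and 1.41 in the model library (0.980 to 2.03), intervals that overlap.

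Fibroblast markers moved with these values. Summed over 10 markers they stood at 1366 CPM in the control and 836 CPM in the model smooth muscle or pericyte-like cells, with 10 and 8 of the 10 detected. They came almost wholly from cluster 107, of 6 control and 7 model cells, which held 296 and 201 of the 318 and 207 marker UMIs and 6041 and 2109 CPM of collagen. In cluster 101, the other 43 and 57 cells, the markers stood at 117 and 31.7 CPM, with Lum, Clec3b, Serpinf1 and Scara5 at 0 in both libraries. There the summed collagen ratio was 0.605 (0.525 to 0.696), and 4 of 10 genes were lower, Col1a1 at 0.352 (0.160 to 0.720), Col1a2 at 0.485 (0.327 to 0.709), Col3a1 at 0.489 (0.310 to 0.757) and Col4a1 at 0.579 (0.425 to 0.784). In this cluster both the markers and the collagens were therefore lower in the model library, and the part of fibroblast RNA in the collagen difference was not tested. Col4a1 had a UMI in 32 of 43 control and 35 of 57 model cells. Without the 3 cells with most collagen UMIs in each library, 3 genes of the whole class were lower and the summed log2 ratio was -0.75. The part of free RNA, whose collagen level in T cell-like cells was also higher in the control library, was not tested.

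Endothelial-like cells held mainly basement membrane collagens. Type IV chains took 64.3% and 56.5% of their collagen UMIs and fibril-forming chains 12.9% and 8.54%. Col4a1 had 355 and 143 UMIs, 954 CPM (857 to 1059) in the control and 645 CPM (544 to 760.4) in the model library, and Col4a2 169 and 80 UMIs, 454 and 361 CPM. Col4a1 reached 2169 and 1379 CPM in cluster 102, led by Scgb3a1 and Podxl, and 1985 and 1971 CPM in cluster 104, led by Gpihbp1, which marks capillaries. It was lower in cluster 100, led by Selp and Ackr1, which mark venules, at 286 and 58.7 CPM, and in cluster 106, led by Sema3g and Gja5, which mark arteries, at 544 and 326 CPM. Col15a1 had 71 and 47 UMIs and Col18a1 28 and 22. Of Col15a1, 40 and 21 UMIs lay in cluster 102.

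Both membrane-anchored chains that were highest in endothelium had their own pattern. Col13a1 had 23 and 20 UMIs in 13 of 66 control and 14 of 68 model cells, and was without a UMI in T cell-like cells of the control library. Col23a1 had 18 and 20 UMIs, of which 15 and 16 came from the 12 and 9 lymphatic cells, at 264 and 474 CPM. That cluster was led by Mmrn1 and Ccl21a.

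In endothelial-like cells 0 of 8 collagen genes were higher and 1 lower in the model library, where 5.09% and 4.76% of all 5064 genes were higher and lower. The lower gene was Col3a1, 63 and 9 UMIs, a ratio of 0.240 (0.105 to 0.485). It was seen in 6 control and 2 model cells, and 1 control cell held 26 of the UMIs. Of the control UMIs 44 came from cluster 100, where Lum, Pdgfra, Dpt, Adamdec1, Clec3b, Serpinf1 and Scara5 were at 0 and Dcn, Fbln1 and Cygb had 4 UMIs together, 28.6 CPM. The part of fibroblast RNA in this difference was not tested. Fibroblast markers summed to 32.2 and 49.7 CPM in all endothelial-like cells, with 4 of the 10 detected in each library. Col4a1 lay at 0.677 (0.553 to 0.824) and Col4a2 at 0.795 (0.602 to 1.04), inside the 1.5-fold, but Col4a1 passed it, at a log2 ratio of -0.70, with a mitochondrial limit of 10%. The clusters were not equally filled. Cluster 106, low in Col4a1, had 13 control and 31 model cells, and cluster 100 had 16 and 3. Within cluster 104 the Col4a1 ratio was 0.993 (0.679 to 1.43), in cluster 102 0.636 (0.437 to 0.909) and in cluster 106 0.600 (0.366 to 0.989), the last 2 past the 1.5-fold. Without cluster 100 the Col4a1 log2 ratio in the class was -0.97, and without the 3 cells with most collagen UMIs -0.27. The median log2 ratio over the 8 genes was 0.28, against 0.00 over all genes, while the summed ratio was 0.808 (0.715 to 0.912). The median and the sum thus differ in sign. Without those 3 cells in each library the summed log2 ratio was -0.028.

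In epithelial cells the summed collagen level did not exceed that of T cell-like cells, which should lack collagens. It lay above that of plasma cell-like cells in both libraries, so the comparison depends on the cell type chosen. In plasma cell-like cells Col3a1 had 8 and 5 UMIs, 1.86 CPM (0.804 to 3.67) in the control and 0.857 CPM (0.278 to 2.00) in the model library. The next values are set against T cell-like cells. In epithelial cells Col3a1 had 179 and 33 UMIs, 4.59 and 0.682 CPM, against 6.42 and 1.51 CPM in T cell-like cells. It was seen in 3.03% and 0.805% of epithelial against 1.35% and 0.443% of T cell-like cells. Median depths were 5457 and 10662 UMIs in epithelial and 3079.5 and 2711 in T cell-like cells. After thinning every cell to 1000 UMIs, Col3a1 was seen in 0.765% and 0.231% of epithelial and 0.721% and 0.173% of T cell-like cells. Among Col1a1, Col1a2 and Col3a1 UMIs of control epithelial cells the shares were 27.7%, 24.7% and 47.6%, close to those of the fibroblast-like cells given above. In the model library they were 34.3%, 34.3% and 31.4%, from 105 UMIs.

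A few chains stood above the level of T cell-like or plasma cell-like cells in particular epithelial types. Tuft cells, chemosensory cells of the epithelium, held Col15a1 with 63 and 29 UMIs at 99.7 and 59.9 CPM. It was seen in 36 of 76 control and 19 of 58 model tuft cells, against 9 of 1336 and 9 of 2481 T cell-like cells, while Col1a1 had 0 UMIs in tuft cells of either library. Median depths were 5942 and 4546 UMIs per tuft cell. Tuft cells were thus the source of 63 of the 77 control and 29 of the 41 model epithelial Col15a1 UMIs. Enteroendocrine cells, the hormone-secreting cells, held Col6a5 with 25 and 18 UMIs in 7 of 72 and 13 of 109 cells, where T cell-like cells held 1 and 0 UMIs. They also held Col27a1 with 4 and 25, Col8a1 with 8 and 12, Col17a1 with 4 and 13 and Col25a1 with 4 and 10 UMIs, at a median depth of 11566 and 7696 UMIs per cell. Plasma cell-like cells held 0 and 1 UMIs of Col27a1 and 0 of Col8a1, Col17a1 and Col25a1. Col17a1 is a hemidesmosome collagen. Of the Col6a5 UMIs of all epithelial cells, 26 and 19 in the 2 libraries, nearly all were thus from enteroendocrine cells. Col7a1, the anchoring fibril chain, had 32 and 26 UMIs in enterocytes spread over 30 and 25 cells, at 2.86 and 2.05 CPM against 0.443 and 0.549 CPM in T cell-like and 1.40 and 1.03 in plasma cell-like cells. These enterocyte levels lay inside the counting intervals of plasma cell-like cells, so Col7a1 did not stand clear of them. The intervals were 0.513 to 3.04 CPM in the control and 0.377 to 2.24 CPM in the model library. Col11a2 and Col20a1 stood at 1.15 and 1.08 and 1.26 and 0.538 CPM in epithelial cells, against 0.664 and 0.275 and 1.11 and 0.412 in T cell-like cells. The counting intervals of these pooled levels overlapped in each library. Within enteroendocrine cells Col11a2 had 6 and 13 UMIs in 3 of 72 and 11 of 109 cells. Its levels there were 5.84 CPM (2.14 to 12.7) in the control and 11.7 CPM (6.21 to 20.0) in the model library. Plasma cell-like cells held 1 and 4 Col11a2 UMIs, 0.233 CPM (0.00589 to 1.30) and 0.686 CPM (0.187 to 1.76).

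Between the libraries, 1 of 19 collagen genes was higher and 9 were lower in model epithelial cells, where 2.49% and 7.78% of all 16756 genes were higher and lower. The median log2 ratio was -0.86, against -0.04 over all genes, and the summed ratio 0.462 (0.413 to 0.517). The epithelial mix also differed, with 1 enterocyte cluster at 683 control and 17 model cells and another at 290 and 721. The part of this mix in the epithelial ratios was not tested. Col3a1 had a ratio of 0.149 (0.0993 to 0.216), Col1a1 0.279 (0.186 to 0.411) and Col1a2 0.312 (0.206 to 0.463). The others that were lower were Col4a1, Col6a1, Col6a2, Col6a3, Col15a1 and Col20a1, with ratios of 0.281, 0.403, 0.403, 0.279, 0.429 and 0.428. Within tuft cells, the source of most epithelial Col15a1 UMIs, the Col15a1 ratio was 0.600 (0.373 to 0.946). T cell-like cells, which should lack collagens, also had a lower summed level in the model library, at a ratio of 0.406 (0.306 to 0.535), and the unnamed clusters of low depth had 0.0876 (0.0620 to 0.120). The unnamed cells were not alike in the 2 libraries, with 1 cluster at 1149 control and 21 model cells and another at 304 and 778. The part of this mix in their ratio was not tested. Macrophage or monocyte-like cells went the other way, with 60 and 115 collagen UMIs, 64.8 and 138 CPM, a ratio of 2.12 (1.54 to 2.95). Much of their model sum lay in single cells, with all 19 Col1a2 UMIs in 1 cell and 20 of 23 Col3a1 UMIs in 1 cell. Fibroblast markers stood at 74.8 and 68.7 CPM in epithelial cells, with 10 of 10 detected in each library, and at 28.3 and 13.9 CPM in T cell-like cells. The part of free RNA in the epithelial ratios was not tested. Goblet cells, the mucus-secreting cells, held 258 of the 872 control and 45 of the 500 model collagen UMIs, with 76 and 6 Col3a1 UMIs and a summed ratio of 0.210 (0.150 to 0.289). The gene that was higher was Col27a1, 10 and 29 UMIs at 2.34 (1.11 to 5.38), of which 4 and 25 were from enteroendocrine cells, seen in 3 of 72 and 12 of 109 of them. Without the 3 cells with most collagen UMIs in each library the gene was no longer above the threshold.

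Smaller cell types carried collagens of their own. In enteric glia-like cells, the support cells of the gut nervous system, Col12a1 led with 74 and 38 UMIs, 1414 and 1551 CPM, seen in 19 of 20 and 6 of 6 cells. It stood at 94.3 and 70.2 CPM in fibroblast-like cells. Col18a1 had 37 and 21 UMIs, 707 and 857 CPM, Col16a1 19 and 10, Col8a1 15 and 10 and Col27a1 11 and 6. Col11a1 had 15 and 12 UMIs in glia-like cells and none in the 4 larger cell types, and Col9a2 10 and 9. Glia-like cells thus held minor fibril and fibril-associated chains that were rare elsewhere, with 34.8% and 45.0% of their collagen UMIs in the fibril-associated family. Their Col3a1, 38 and 4 UMIs, had a ratio of 0.225 (0.0583 to 0.625), and Col12a1 one of 1.10 (0.722 to 1.64), with 6 cells in the model library. Mesothelial-like cells held Col3a1 with 167 and 151 UMIs, Col1a1 with 71 and 67, Col6a1 with 58 and 71 and Col14a1 with 35 and 31, and the summed ratio was 1.04 (0.918 to 1.18). Their type VI chains were unequal, with 0.276 and 0.183 UMIs of Col6a3 per UMI of Col6a1, against 1.04 and 1.08 in fibroblast-like cells. These mesothelial-like values lean on single cells. The cell with most UMIs of the gene held 53 of 167 control and 82 of 151 model UMIs for Col3a1. For Col1a1 it held 38 of 71 and 43 of 67, and for Col14a1 15 of 35 and 15 of 31. For Col6a1 it held 22 of 58 and 45 of 71, and for Col6a3 6 of 16 and 7 of 13. In macrophage or monocyte-like cells Col14a1 had 33 and 11 UMIs in 19 of 228 and 8 of 207 cells, against 0 and 3 UMIs in T cell-like cells. In the model library 1 of these cells held 20 of the 23 Col3a1 UMIs.

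Genes that act on collagen were examined by list. In fibroblast-like cells none of 17 measured folding and modification genes (prolyl and lysyl hydroxylases, the chaperone Serpinh1 and others) were higher or lower in the model library, with a median log2 ratio of 0.04. Over all genes measured in these cells 3.5% were higher and 5.2% lower. Of the cleavage and crosslinking genes 1 of 9 was higher, of the breakdown genes and their inhibitors 2 of 10 were higher, of the collagen receptors 0 of 5 differed, and of the matrix partners 1 of 14 was higher and 1 lower. Of the basement membrane partners 1 of 8 was lower, and of the TGF-beta genes 2 of 13 were higher and 1 lower. The medians were 0.03, 0.27, 0.45, -0.03, -0.10 and -0.07 for the cleavage, breakdown, receptor, matrix, basement membrane and TGF-beta lists, against -0.05 over all genes. The named genes have the 2 highest and 2 lowest ratios of each cell type among those with at least 50 UMIs. Ctsk, which encodes the collagen-degrading protease cathepsin K, had 51 and 31 UMIs, a ratio of 2.04 (1.26 to 3.24). Ltbp1, which binds latent TGF-beta, had 180 and 92 UMIs, a ratio of 1.71 (1.32 to 2.21). Thbs1, encoding the matrix protein thrombospondin 1, had 338 and 31 UMIs, 0.307 (0.205 to 0.444), and Lama4, a laminin chain, 114 and 15, 0.441 (0.239 to 0.758). 

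In smooth muscle or pericyte-like cells 0 of 8 folding genes differed, while 3 of 8 matrix partners and 3 of 11 TGF-beta genes were lower and 1 of 11 higher. Over all genes measured in these cells 3.69% were higher and 4.6% lower. Of 3 cleavage and crosslinking genes 1 was lower, of 4 breakdown genes 2 were higher, of 4 receptors 1 was lower and of 6 basement membrane partners 1 was lower. The list medians of the log2 ratio were 0.16, 0.25, 0.31, -0.28, -0.48, 0.03 and -0.06, in the order folding, cleavage, breakdown, receptor, matrix, basement membrane and TGF-beta. Tgfb2, a TGF-beta ligand, had 64 and 31 UMIs, a ratio of 0.456 (0.287 to 0.710), and Ddr2, a receptor kinase for fibrillar collagen, 42 and 25, 0.560 (0.327 to 0.940). Ctsb, encoding cathepsin B, had 22 and 48 UMIs, 2.05 (1.22 to 3.57), and Ccn1, a matricellular protein, 190 and 342, 1.69 (1.41 to 2.03). In endothelial-like cells 0 of 11 folding genes and 0 of 4 receptors differed, 4 of 10 matrix partners were higher and 2 lower, 5 of 13 TGF-beta genes were higher and 1 lower, and 2 of 9 basement membrane partners were higher and 1 lower. Of 3 cleavage and crosslinking genes 1 was higher, and of 5 breakdown genes 1 was higher and 1 lower. The shares over all genes measured in endothelial-like cells were 5.09% higher and 4.76% lower. Here the list medians were -0.08, 0.49, -0.27, 0.25, 0.37, -0.16 and 0.30, in the order folding, cleavage, breakdown, receptor, matrix, basement membrane and TGF-beta. Fn1, encoding fibronectin, had 61 and 109 UMIs, 164 and 492 CPM, with an interval of the ratio from 2.17 to 4.18, and Aspn, a small proteoglycan, 18 and 32, 2.99 (1.63 to 5.65). Lamb1, a laminin chain, had 46 and 11 UMIs, 0.402 (0.188 to 0.787), and Timp2, an inhibitor of matrix proteases, 126 and 44, 0.587 (0.406 to 0.833). Pericyte markers stood at 838 CPM in control and 1557 CPM in model endothelial-like cells, with 8 and 7 of 8 detected, Higd1b being at 0 in the model library. Smooth muscle markers stood at 981 and 1160 CPM, with 7 and 6 of 8 detected. Cnn1 was at 0 in both libraries and Actg2 in the model library. The part of such RNA in the endothelial-like ratios was not tested.

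In epithelial cells 4 of 16 folding genes were lower and 1 higher, 4 of 11 basement membrane partners, 4 of 8 matrix partners, 2 of 7 receptors and 1 of 12 TGF-beta genes were lower, and 0 of 4 cleavage and 0 of 7 breakdown genes differed. The shares over all genes measured in epithelial cells were 2.49% higher and 7.78% lower. The epithelial list medians were -0.06, -0.09, -0.25, -0.26, -0.86, -0.57 and -0.23, in the order folding, cleavage, breakdown, receptor, matrix, basement membrane and TGF-beta. Lama3, the epithelial laminin chain, had 431 and 134 UMIs, a ratio of 0.251 (0.205 to 0.305), and Ltbp4 50 and 16, 0.258 (0.137 to 0.461). Lama3 was among the leading genes of an enterocyte cluster with 528 control and 147 model cells, and the part of that difference was not tested. P3h4, a collagen-modifying protein, had 17 and 44 UMIs, 2.09 (1.17 to 3.90), and Nid2, a basement membrane linker, 100 and 176, 1.42 (1.10 to 1.83), inside the 1.5-fold.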

How the data were processed

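Single-cell RNA was counted from 1 control and 1 model library of mouse small intestine. Per the file headers the deposited matrices hold raw UMI counts per gene and barcode from Cell Ranger 7.0.1, whereas Cell Ranger 4.0 and the GRCm39 build stand in the submitters' processing notes. Whether counting used strand or intronic reads was not stated there. Cells were barcodes that reached 500 UMIs and 200 genes without exceeding 25% mitochondrial UMIs. Both libraries were normalised to 10000 UMIs per cell and log-transformed, and 2000 variable genes without collagen genes, 30 principal components and 15 neighbours gave Leiden clusters at resolution 1 (scanpy 1.11.5). Stromal clusters were clustered again. A cluster took a name from at least 3 markers at 2-fold or more and in 10% or more of its cells. Scrublet marked 0 doublets in either library, so it had not worked and none were removed.

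Counts were summed per cell type and library, and the ratio is of CPM. Genes with at least 20 UMIs over both libraries were compared, and a call needed a 1.5-fold or larger ratio in either direction with a 95% interval that excluded 1. No p-value was computed, since each group is 1 library. The code was tested on simulated counts. Collagen genes with 50 UMIs or more in a cell type were described there in full, those with 20 or more got a ratio, and of the partner lists the 2 highest and 2 lowest ratios among genes with 50 UMIs or more were named; other values were chosen after they were seen. The members, lists and rules were chosen with earlier results of these data known. Alternatives covered filters, doublets, scaling, thinning, thresholds and the cells or clusters included.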

Additional observations from a re-analysis of the deposited data

Results flagged for a closer look

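Col27a1 differed between the libraries in opposite directions in 2 cell types. Its ratio of model over control was 0.129 in fibroblast-like cells, from 26 and 1 UMIs, and 2.34 in epithelial cells, from 10 and 29 UMIs. The summed collagen level had a ratio above 1 in fibroblast-like cells, 1.17, and below 1 in smooth muscle or pericyte-like cells, 0.523, in endothelial-like cells, 0.808, and in epithelial cells, 0.462. With 1 library per group the difference between cell types was not tested. The fibroblast-like direction changed with the weighting of cells.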

How the results depend on the processing

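No paired analysis was possible because each group is 1 library. Of 174 alternative values for the summed levels and the numbers of higher and lower genes, 122 stayed the same by the rules used, 46 moved and 6 changed direction. Of 636 for single genes, 596 stayed the same, 40 moved and 0 changed direction past the threshold. The summed log2 ratios were 0.22 in fibroblast-like, -0.93 in smooth muscle or pericyte-like, -0.31 in endothelial-like and -1.11 in epithelial cells, and in each case below the cause of a shift was not tested.
With a mitochondrial limit of 10% the sums were 0.13 in fibroblast-like and -0.68 in smooth muscle or pericyte-like cells, with 4 lower genes in the latter, 2 lower in endothelial-like and 0 higher in epithelial cells. Without that limit fibroblast-like cells gave 0.14 and endothelial-like cells 2 lower genes, and at a minimum of 1000 UMIs endothelial-like cells again gave 2. Clustering each library alone gave -0.18 and 2 higher genes in fibroblast-like cells, -0.54 and 4 lower in smooth muscle or pericyte-like cells, and 2 higher and 2 lower in endothelial-like cells. Leaving out the 8% of cells with the highest doublet scores gave 0.14 in fibroblast-like cells.
Thinning to 1000 UMIs gave -0.082 and 0 lower genes in fibroblast-like cells, 2 lower in smooth muscle or pericyte-like, 0 lower in endothelial-like, and -0.95 with 0 higher and 2 lower in epithelial cells; thinning leaves fewer UMIs. Subtracting the T cell-like level gave no value in epithelial cells, where it exceeded the summed level. The mean per cell gave -0.12 in fibroblast-like, -0.067 in endothelial-like and -1.38 in epithelial cells, and scaling to the median gene 0.27 in fibroblast-like cells. Without the 3 cells with most collagen UMIs the values were 0.042 with 1 higher gene in fibroblast-like, -0.75 with 3 lower in smooth muscle or pericyte-like, -0.028 in endothelial-like, and 0 higher in epithelial cells. A minimum of 50 UMIs left 1 lower gene in fibroblast-like, 4 lower in smooth muscle or pericyte-like and 0 higher in epithelial cells, and a 2-fold threshold 1 lower in fibroblast-like cells.
The next settings were chosen after seeing the data. Among fibroblast-like cells, cluster 105 alone gave -0.26 with 1 higher and 1 lower gene, cluster 108 0.12, cluster 110 0.79 and cluster 111 0.55, and weighting the clusters by their control shares 0.11. Without cluster 107 smooth muscle or pericyte-like cells gave -0.72 and 4 lower genes, and without cluster 100 endothelial-like cells -0.56 and 2 lower genes. Of the epithelial types alone, crypt cells gave 0.31, enteroendocrine cells 0.53, tuft cells -0.56, goblet cells -2.25 and epithelial cells of no finer type -2.09. Among cells of no finer type 1 control cell held 40 of 50 Col3a1 UMIs. Among crypt cells 1 model cell held 14 of 23 Col1a2 UMIs, so both values lean on single cells.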

Other observations

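The 2930 control and 3555 model barcodes that did not pass the filters, nearly all of them over 25% mitochondrial UMIs, held 248 and 192 collagen UMIs, 29.8 and 18.3 CPM. The unnamed clusters of 1453 control and 799 model cells, with a median of 887 and 893 UMIs per cell, held 685 and 40 collagen UMIs, 302 and 26.4 CPM. In the control library 158 of these were of Col1a1, spread over 146 cells. Col1a1, Col1a2 and Col3a1 took 34.2%, 28.1% and 37.7% of the UMIs of the 3 genes there.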
